A study of Mus musculus with 2 samples.

Results

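Loops that join a gene to a stretch without gene ends were described in HPC5 cells, a line of mouse blood progenitors from bone marrow that carries wild-type Etv6 (Etv6+/+). The cells were profiled by Hi-C, which joins and sequences pieces of DNA that touch inside the nucleus, and the authors listed loops as pairs of anchors. The series holds 2 samples of 1 group, replicates 1 and 2, with no mutant or treated sample. A loop was taken when its anchors lay under 500 kb apart, midpoint to midpoint, and exactly 1 of its 2 anchors contained the start or end of a gene that codes for protein, in the replicate 2 list called at the authors' medium setting. This gave 2016 of 5729 loops. The anchor with the gene end is called genic below and the other non-genic, although a non-genic anchor may lie inside a gene or hold a non-coding gene. The members were thus chosen by the replicate 2 loop calls and by gene positions, and replicate 1 was not used. The labels do not say whether the replicates came from separate cultures, and read depth is unknown.

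In the textbook account, the ring-shaped cohesin complex draws DNA into a loop until it is halted at sites bound by CTCF, which makes loops between pairs of fixed anchors. Contacts between a gene's promoter and a distant enhancer, a stretch that raises transcription, are a second kind. Blood progenitor genes such as Myc and Runx1 are known to be driven by enhancers far from their starts. A loop list alone tells neither kind from the other, since it holds no protein binding, and no expression by which the labelled cell type could be checked.

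The sequences around a few gene starts that lay in the genic anchors are given first, as the 300 bases from 250 before to 50 after a start in RefSeq (GRCm38.p6). Meis1, a homeobox partner of Hox proteins, was taken because its window held an ETS match, and Ep300, an acetyltransferase of active enhancers, because it held a CTCF match. Jun and Gadd45a, 2 stress-response genes, had loops recurring in replicate 1, as had Nfkbia, the inhibitor that holds NF-kB in the cytoplasm. Tnfaip3, which switches NF-kB signalling off, was among the genes with the most loops. Capitals mark a match to the ETS site CCGGAAGT or to the CTCF core, which reads CCA, any 2 bases, AG, any 2 bases and GGC, on either strand, and windows all in lower case hold neither.
Meis1, chr11:19018920-19019219, minus strand: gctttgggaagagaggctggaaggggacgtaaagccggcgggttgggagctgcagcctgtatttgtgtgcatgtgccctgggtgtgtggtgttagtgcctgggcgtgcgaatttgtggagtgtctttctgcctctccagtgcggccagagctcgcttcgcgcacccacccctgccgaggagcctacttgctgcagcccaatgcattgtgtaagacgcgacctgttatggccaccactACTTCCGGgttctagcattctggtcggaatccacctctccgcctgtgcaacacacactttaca
Ep300, chr15:81585964-81586263, plus strand: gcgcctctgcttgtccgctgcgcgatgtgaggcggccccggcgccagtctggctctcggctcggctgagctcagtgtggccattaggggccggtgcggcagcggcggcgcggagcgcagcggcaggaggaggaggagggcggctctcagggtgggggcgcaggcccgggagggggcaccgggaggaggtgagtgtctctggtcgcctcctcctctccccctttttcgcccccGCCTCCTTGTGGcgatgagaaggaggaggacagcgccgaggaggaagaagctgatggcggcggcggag
Jun, chr4:95052173-95052472, minus strand: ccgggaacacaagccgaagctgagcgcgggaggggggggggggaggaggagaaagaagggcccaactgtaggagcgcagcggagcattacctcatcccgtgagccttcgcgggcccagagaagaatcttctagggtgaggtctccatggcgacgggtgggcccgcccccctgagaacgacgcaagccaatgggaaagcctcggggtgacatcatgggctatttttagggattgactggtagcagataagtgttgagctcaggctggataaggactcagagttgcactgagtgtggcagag
Gadd45a, chr6:67037358-67037657, minus strand: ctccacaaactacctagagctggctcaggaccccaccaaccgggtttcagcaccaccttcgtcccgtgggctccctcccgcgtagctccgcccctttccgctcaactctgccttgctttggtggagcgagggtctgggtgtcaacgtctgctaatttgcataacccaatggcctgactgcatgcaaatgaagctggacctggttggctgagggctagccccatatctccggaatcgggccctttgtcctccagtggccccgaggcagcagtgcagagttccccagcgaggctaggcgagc
Nfkbia, chr12:55492598-55492897, minus strand: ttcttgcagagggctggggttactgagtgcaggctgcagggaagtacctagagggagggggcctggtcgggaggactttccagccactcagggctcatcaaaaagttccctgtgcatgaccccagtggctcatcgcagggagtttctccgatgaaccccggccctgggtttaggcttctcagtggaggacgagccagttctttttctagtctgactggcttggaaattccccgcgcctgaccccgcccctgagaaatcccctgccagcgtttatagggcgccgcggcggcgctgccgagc
Tnfaip3, chr10:19015361-19015660, minus strand: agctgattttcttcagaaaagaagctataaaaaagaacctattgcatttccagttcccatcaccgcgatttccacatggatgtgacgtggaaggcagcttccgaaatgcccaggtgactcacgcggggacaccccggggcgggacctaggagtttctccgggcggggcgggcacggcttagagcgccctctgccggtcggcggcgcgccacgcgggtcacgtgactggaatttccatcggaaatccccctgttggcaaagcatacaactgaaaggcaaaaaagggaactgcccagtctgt

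Of 21045 start windows of protein-coding genes, 1195 lay with their start in a genic anchor of these loops. These windows were richer in CpG than the 18757 windows at neither kind of genic anchor. The ratio of observed to expected CpG was at least 0.6 in 65.2% (95% Wilson interval 62.4 to 67.8%) against 46.1% (45.4 to 46.9%), with median GC contents of 60.7 and 56%. At the 1201 windows in anchors of gene to gene loops, which hold a gene end at each anchor, the CpG share was 64% (61.3 to 66.7%), an interval that overlaps the first. The CTCF core was found in 3.43% of the windows at gene to non-genic loops (2.54 to 4.62%), 3.66% at gene to gene loops (2.74 to 4.88%), 2.23% at neither (2.03 to 2.45%) and 2.37% of all. The ETS site, the kind of sequence bound by the family of Etv6, was found in 5.19% (4.07 to 6.6%), 9.66% (8.11 to 11.5%) and 4.93% (4.63 to 5.25%) of the 3 groups and in 5.2% of all. Gene to non-genic loops were thus near the background for the ETS site, and gene to gene loops lay above both. No window held overlapping matches to both patterns. A match describes letters in the window and not a bound protein, some genes have several windows, and some windows lay at loops of both classes.

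Gene to non-genic loops made up 39.4% of the 5120 replicate 2 loops under 500 kb. Gene to gene loops numbered 804 (15.7%), and loops with no gene end at either anchor 2300 (44.9%). The share of gene to non-genic loops rose with the width of the anchor, from 31% on 5 kb anchors to 38.8% on 10 kb and 44.3% on 25 kb. Wider anchors have more room for a gene end, but no share at other bins of equal width was computed. The part of this in the rise was not tested. There were 304 such loops on 5 kb anchors, 864 on 10 kb and 848 on 25 kb. In replicate 1 the same rule gave 531 of 1185 loops under 500 kb, or 44.8%, with 443 of them on 25 kb anchors. Within a width the replicates were close, at 44% on 10 kb and 45% on 25 kb anchors in replicate 1. By chromosome the loops took from 34.7% (chromosome 16) to 43.8% (chromosome 19) of all loops under 500 kb in replicate 2.

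The loops spanned a median of 130 kb, with quartiles of 90 and 230 kb and extremes of 35 and 490 kb. Within a width, the medians fell between those of the other classes or matched them. On 5 kb anchors the median was 70 kb, against 60 kb for gene to gene loops and 95 kb for loops without gene ends. On 10 kb anchors the medians were 110, 80 and 130 kb in the same order, and on 25 kb anchors 200, 175 and 200 kb. In replicate 1 the median was 150 kb for gene to non-genic loops, 105 kb on 10 kb and 150 kb on 25 kb anchors. The lists also give each loop an integer, n, that the files do not define. Its median was 19, 30 and 67 at 5, 10 and 25 kb, against 18.5, 31 and 67 for gene to gene loops and 19, 30 and 65.5 for loops without gene ends. Since n rose with width, its values on anchors of unlike width cannot be set against each other.

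The 500 kb limit left out 609 of the 5729 loops, whatever their anchors held, with a median span of 700 kb and a longest of 1960 kb. The longest loops inside the limit spanned 490 kb (2 loops), the next outside it 500 kb (17 loops), and 63 loops lay from 450 kb to the limit. A second threshold is the anchor's edge. For 133 loops (6.6%) a protein-coding gene ended within 1 kb of the edge of the non-genic anchor, so that a slightly wider bin would have moved them to another class. The closest such end lay 0.022 kb away.

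**Figure D1:**
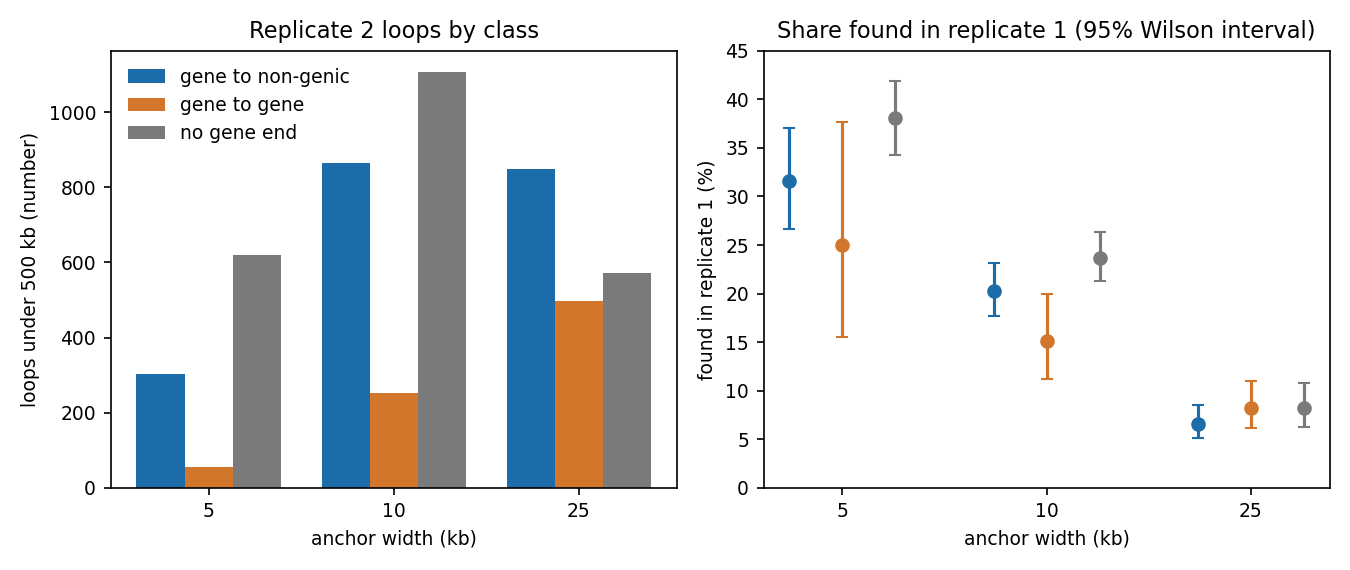
Left, number of replicate 2 loops under 500 kb (vertical axis) by anchor width in kb (horizontal axis) for gene to non-genic loops (blue), gene to gene loops (orange) and loops without gene ends (grey). Right, percent of these loops found in replicate 1, with points for the share and bars for the 95% Wilson interval; shares fall with anchor width in every class, for gene to non-genic loops from 31.6 to 6.6%.

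Replicate 1, which played no part in the choice, held 327 of the 2016 loops, with both anchor midpoints within 20 kb. This is 16.2% (14.7 to 17.9%), against 18.9% of all 5120 replicate 2 loops under 500 kb. With the high setting in both replicates it was 5.57%. The replicate 1 list is shorter and has no 5 kb anchors, and its depth is unknown, so a loop missing from it was not shown to be absent. By width the share was 31.6% (26.6 to 37%) on 5 kb anchors, 20.3% (17.7 to 23.1%) on 10 kb and 6.6% (5.12 to 8.48%) on 25 kb. Gene to gene loops were found in 25, 15.1 and 8.27% and loops without gene ends in 38.1, 23.7 and 8.22%. Narrow anchors depended on the matching rule, since the share on 5 kb anchors was 19.4% by overlap of both anchors and that on 10 kb anchors 12.2% within 10 kb. At each width the interval of the gene to non-genic loops overlapped that of both other classes.

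On 5 and 10 kb anchors the share found also moved with span. Of the 1185 replicate 1 loops under 500 kb, 985 lie on 25 kb anchors and span 100 kb or more. The part of this in the shares found was not tested. On 10 kb anchors 6.01% (4 to 8.93%) of gene to non-genic loops under 100 kb were found, but 31.1% (25.9 to 36.9%) of those from 100 to 200 kb and 30.2% (24.6 to 36.5%) of longer ones. On 5 kb anchors the shares were 16.5% (12 to 22.3%), 59.2% (48 to 69.6%) and 64.3% (45.8 to 79.3%). On 25 kb anchors, which start at 100 kb, they were 7.88% (5.64 to 10.9%) and 5.43% (3.68 to 7.95%), with overlapping intervals. At the same width and span the other classes lay close by. Loops without gene ends on 10 kb anchors were found in 5.71, 33.1 and 33.6%, and gene to gene loops in 3.31, 34.2 and 28.6%, all with intervals that overlap those of the gene to non-genic loops. No test between classes was made, because loops of 1 sample are not replicates.

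**Figure D2:**
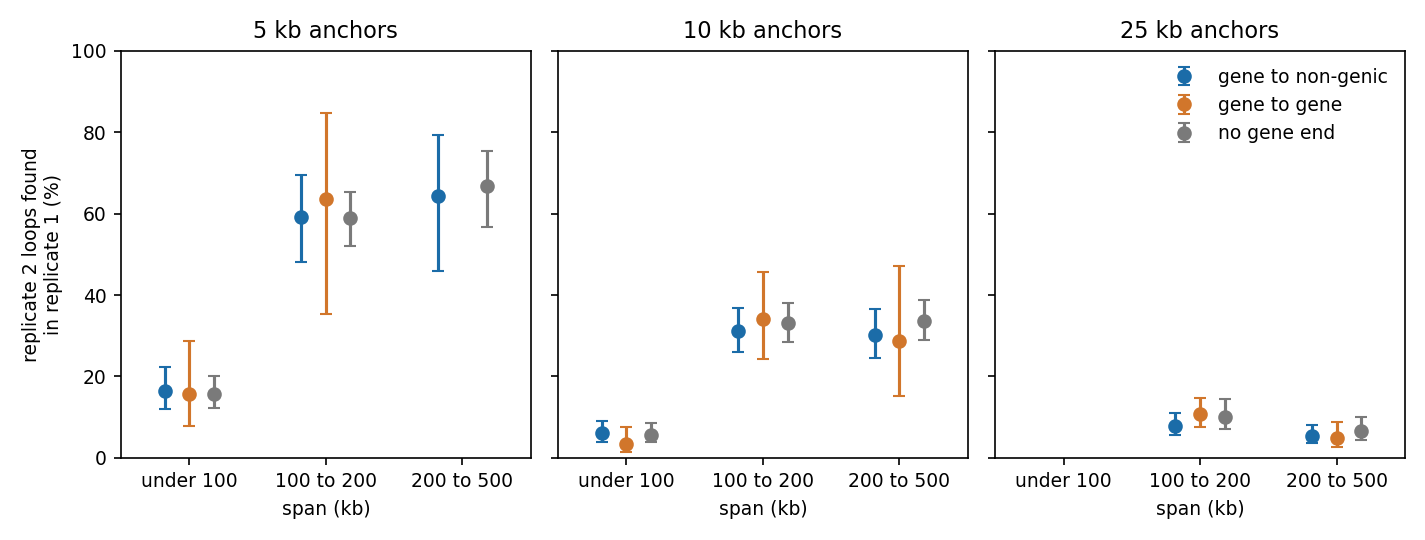
Percent of replicate 2 loops found in replicate 1 (vertical axis) by span in kb (horizontal axis), in 1 panel for each anchor width, with points for the share and bars for the 95% Wilson interval; colours are the 3 classes. The intervals of the classes overlap at each span. Under 100 kb, 16.5 and 6.01% of gene to non-genic loops on 5 and 10 kb anchors were found. Replicate 1 loops on 25 kb anchors, 985 of 1185, span 100 kb or more, and the part of this in the shares was not tested. In replicate 2, too, 25 kb anchors have no loop under 100 kb, and no gene to gene loop of 200 kb or more was listed on 5 kb anchors.

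The class itself was only partly kept. Of the 327 counterparts in replicate 1, 223 (68.2%, 63 to 73%) were again gene to non-genic by their own, mostly wider, anchors. A further 87 (26.6%) held a gene end at each anchor and 17 (5.2%) at neither. Only 64 (19.6%) had the same anchors in both lists. At the 55 of these on 25 kb anchors, n had a median of 86 in replicate 2 (quartiles 68 and 108) and 29 in replicate 1 (24 and 35) and was higher in replicate 2 at all 55. It was also higher in replicate 2 at all 9 on 10 kb anchors, with medians of 44 and 19. By gene, 328 of the 2203 genes at the replicate 2 loops (14.9%) were also at a gene to non-genic loop of replicate 1, which is 49.2% of the 667 genes there.

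The non-genic anchor lay in a gene body as often as not. In 223 loops (11.1%, 9.77 to 12.5%) it was inside the gene of the genic anchor, in 810 (40.2%, 38.1 to 42.3%) inside another protein-coding gene, and in 983 (48.8%, 46.6 to 50.9%) between genes. Replicate 1, under the same rule, gave 10.4, 42.2 and 47.5%. The share inside any gene was 47.4, 51.6 and 52.2% at 5, 10 and 25 kb. Anchors of loops without gene ends lay inside a gene in 49.6, 49.9 and 53.5% of cases at these widths, within a few percent of the non-genic anchors. The gene table holds no exons, so exonic and intronic positions were not told apart.

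The gene joined to a non-genic anchor was usually not the nearest one. The shortest loops listed span 35, 50 and 100 kb on 5, 10 and 25 kb anchors, which leaves room for nearer genes. No share at other positions of equal span was computed, so the part of loop length was not tested. From the anchor's midpoint the closest protein-coding gene end lay a median of 23.2 kb away (quartiles 12.7 and 47.4 kb), and it belonged to a gene of the genic anchor in 402 loops (19.9%, 18.3 to 21.7%). A further gene ended between the anchors in 1360 loops (67.5%, 65.4 to 69.5%), with a median of 1 such gene and at most 27. Where none did, the nearest end was that of the joined gene in 393 of 656 loops (59.9%, 56.1 to 63.6%). On 25 kb anchors the replicates were close, with a further gene between the anchors in 68.8% of loops in replicate 2 and 66.8% in replicate 1 and the joined gene nearest in 19.3 and 17.8%. For 148 loops (7.34%) the non-genic anchor's edge was 100 kb or more from any protein-coding gene end.

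**Figure D3:**
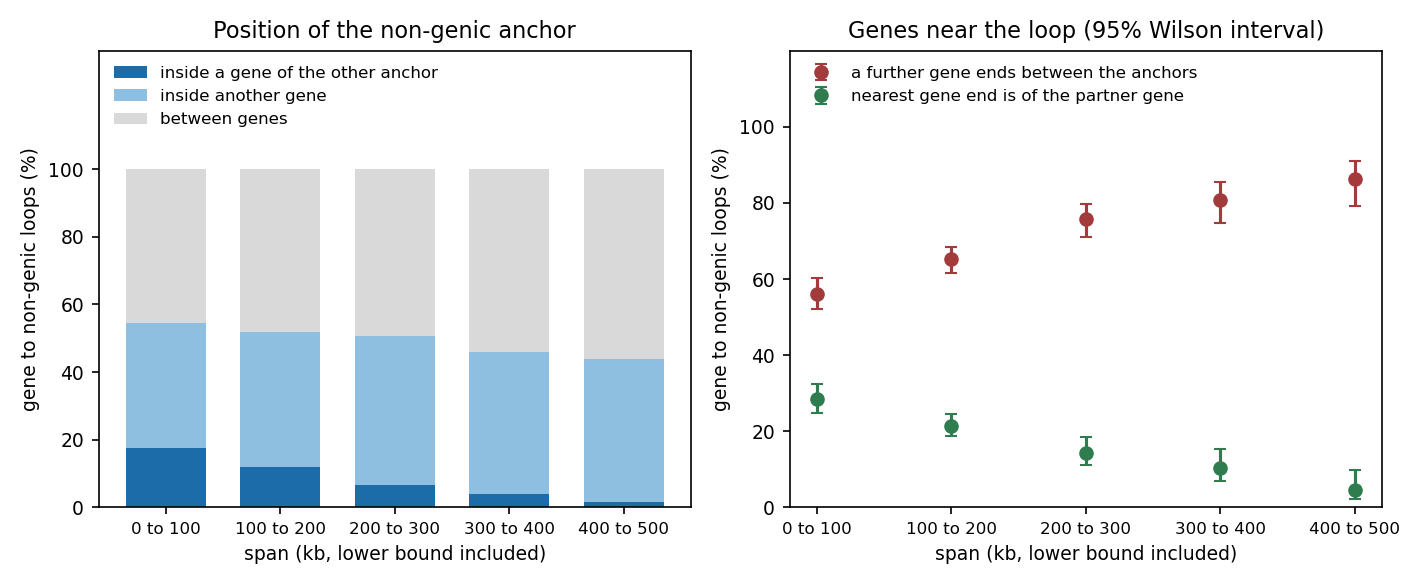
Left, percent of gene to non-genic loops (vertical axis) whose non-genic anchor lies inside a gene of the genic anchor, inside another gene or between genes, by span in kb (horizontal axis). Right, percent of loops with a further gene end between the anchors (red) and with the joined gene nearest to the non-genic anchor (green), with 95% Wilson intervals; from the shortest to the longest spans the first goes from 56.2 to 86.2% and the second from 28.4 to 4.62%.

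These positions moved with span. Under 100 kb 17.7% of the loops ended inside the gene they started from, and from 400 kb up 1.54% did, while the share inside another gene stayed between 36.7 and 43.9%. A further gene lay between the anchors in 56.2% of loops under 100 kb and in 86.2% of those from 400 kb up. Longer stretches have more room for gene ends, and no shares at other stretches of equal span were computed. The longest loops by the naming rule are given as examples. Eea1, which encodes an endosome tethering protein, was joined over 490 kb to an anchor inside Nudt4, and Cts8, a placental cathepsin gene, over 490 kb to one inside Dapk1, with ends of 12 further genes between. Fam43a had a 480 kb loop to an anchor inside Xxylt1 that was found in replicate 1 at 475 kb. Dcdc5 and Rap2b, a small GTPase gene, had loops of 475 kb. The non-genic anchor of Rap2b lay 469 kb from the nearest gene end, which was that of Rap2b itself.

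The shortest span, 35 kb on 5 kb anchors, was shared by further loops, such as those of Csf1r and Tet2 below. The first 5 in chromosome order are named and need not be typical. Of these, the loops of Ralgds, Niban2 and Nek6 ran from the gene's start into its own body. Those of Rnf149 and Vps18 ran upstream of the start to a position between genes. The loop of Niban2 was found in replicate 1, at 50 kb, where neither anchor of the wider pair held a gene end.

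Gene starts were seen at the genic anchors more often than gene ends proper on narrow anchors. RefSeq start windows gave the strand for 1937 of 2476 pairs of a loop and a gene at its anchor. The anchor held the 5′ end alone in 950, the 3′ end alone in 757 and both in 230. Among pairs with 1 end in the anchor, the 5′ end made up 67.2% (61.2 to 72.7%) on 5 kb anchors, 59% (55.4 to 62.4%) on 10 kb and 48.1% (44.4 to 51.8%) on 25 kb. Gene to gene loops gave 69.3, 58.4 and 47.6%, so the pattern was not particular to 1 class. In replicate 1 the share was 57.7% (46.6 to 68%) on 10 kb and 48.3% (43.4 to 53.3%) on 25 kb anchors.

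From the 5′ end the non-genic anchor lay upstream in 502 of 950 pairs (52.8%, 49.7 to 56%), which did not differ from an even split beyond the interval. Downstream of a 5′ end, 30.1% of non-genic anchors were inside the gene itself, 34.4% inside another gene and 35.5% between genes. Upstream, 55.8% lay between genes. From the 3′ end, the non-genic anchor lay upstream, on the side of the gene body, in 340 of 757 pairs (44.9%, 41.4 to 48.5%), below an even split by its interval. In replicate 1 these upstream shares were 50.6% (44.3 to 57%) and 46.6% (40.3 to 53%), and both intervals include an even split. For gene to gene loops of replicate 2 the other anchor lay upstream in 53.9% of pairs with the 5′ end (50.4 to 57.4%). With the 3′ end it did in 45.5% (41.8 to 49.2%), so the lean at the 3′ end was not particular to gene to non-genic loops.

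Loops inside their own gene, 223 in all, had a median span of 100 kb. They were found in replicate 1 in 23 cases (10.3%, 6.97 to 15%), against 17.2% (14.7 to 19.9%) for anchors inside another gene and 16.8% (14.6 to 19.3%) for anchors between genes. Within a width the intervals overlapped, as on 10 kb anchors with 13.4% (8 to 21.6%), 22.9% (18.8 to 27.6%) and 19.6% (16.1 to 23.7%). Genes chosen after their values were seen illustrate the 23. Elmo1, an activator of Rac signalling, had a 90 kb loop from its start into its body in replicate 2 (n = 38 on 10 kb anchors). In replicate 1 it had one of 100 kb (n = 40 on 25 kb anchors). Ssbp2, whose protein joins Lmo2-containing complexes, had one of 170 kb on 10 kb anchors in each replicate, with n of 42 and 20. Igf1r, the receptor of insulin-like growth factor, had one of 180 kb (175 kb in replicate 1), and Epb41, the gene of a red cell membrane skeleton protein, one of 100 kb in each.

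Non-coding genes or pseudogenes had an end in 526 of the non-genic anchors (26.1%, 24.2 to 28.1%), long non-coding RNAs in 360 (17.9%) and pseudogenes in 146 (7.24%). By width the share with an end of any of them was 12.2, 21.2 and 36.1% at 5, 10 and 25 kb, against 11, 19.5 and 31.5% at anchors of loops without gene ends. The single kinds were not counted at other anchors. Pvt1, a lncRNA gene named after its value was seen, had an end at a non-genic anchor joined to Myc.

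MicroRNA genes, whose short products repress messenger RNAs paired to their seed, had an end at the non-genic anchor of 23 loops (1.14%). No such share was computed at other anchors, so whether this is many or few is not known. Of 24 such genes, let-7b and let-7c-2, microRNAs known for restraining growth in differentiated cells, are shown because they lie side by side in 1 anchor. That anchor, 85700001 to 85724999 on chromosome 15, was joined over 150 kb to one with ends of Ttc38 and of Gtse1, a gene active in G2 and S phase (n = 44). Mir129-2 lay in the anchor 94240001 to 94249999 on chromosome 2, joined over 90 kb to Hsd17b12, a fatty acid elongation enzyme gene (n = 31). Neither loop was found in replicate 1. Capitals mark the seed, bases 2 to 8, in the RefSeq mature sequences (GRCm38.p6), and the let-7 pair shares its seed.
let-7b-5p, chr15:85707325-85707346, plus strand: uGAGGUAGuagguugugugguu
let-7c-5p, chr15:85706616-85706637, plus strand: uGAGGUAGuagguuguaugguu
miR-129-5p, chr2:94241419-94241439, minus strand: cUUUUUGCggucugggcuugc

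Most genes had 1 such loop. Of 21521 protein-coding genes, 2203 (10.2%) ended or started in a genic anchor, from 5.61% of the genes on the X chromosome to 14.9% on chromosome 18. A single loop was listed for 1962 of them (89.1%), 2 for 212, 3 for 26 and 4 for 3 genes. The genic anchor held 1 gene in 1601 loops (79.4%), 2 in 380 and more in 35. Of 1964 non-genic anchors with distinct coordinates, 52 took part in 2 of these loops and none in more. This count takes only identical start and end as the same anchor, so a site may have more loops. For example, the 10 kb non-genic anchor of Vil1 lay within the 25 kb one joined to Tmbim1 and to Wnt6. Anchors of any further loop in the list overlapped the genic anchor in 34.6% of loops (32.5 to 36.7%) and the non-genic one in 30.5% (28.5 to 32.6%).

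The 3 genes with 4 loops were Prex1, Adam10 and Tnfaip3. Tnfaip3 fanned out from its start on chromosome 10, at 19010001 to 19019999, to anchors 50, 80 and 170 kb upstream and 60 kb downstream. All 4 anchors lay between genes, with Tnfaip3 the nearest gene to each, and n was 46, 57, 39 and 51. None of them was found in replicate 1, where the gene had no gene to non-genic loop. Adam10, a sheddase that cleaves Notch and other surface proteins, had loops of 50 kb from its end and of 60, 160 and 400 kb from its start. The 60 kb loop stayed in the gene, and those of 50 and 160 kb met at 1 anchor inside Lipc, at 70830001 to 70839999 on chromosome 9. Prex1, a Rac activator of blood cells, had loops of 60 and 100 kb at its start and of 225 and 460 kb at its end. The 460 kb loop, into Sulf2, was found in replicate 1 at 450 kb.

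Lhx9 and Rgs2 followed with 3 loops each, by chromosome order among the 26 genes. Lhx9, a homeobox gene of gonad and limb, was joined over 250 and 325 kb to Dennd1b and over 425 kb to Crb1, from 1 anchor at 138825001 to 138849999 on chromosome 1. Rgs2, a brake on G protein signalling, had loops of 80, 190 and 375 kb. The anchor of its 190 kb loop, 144190001 to 144199999, was also joined to the end of Uchl5, over 390 kb. It was 1 of the 52 shared non-genic anchors. Others, in chromosome order, lay inside Stau2 (joined to Eloc and to Rpl7 with Rdh10), inside Usp37 (Tmbim1 and Wnt6), inside Efcab2 (Catspere2, and Cox20 with Hnrnpu) and beside Ptgs1, the cyclooxygenase 1 gene, where the start of Ptgs1 and that of Mrrf met 1 anchor over 60 and 140 kb.

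The highest n at each width was 59 for Ccdc163 at 5 kb, 66 for Rgs1 and for Exd1 with Chp1 at 10 kb, and 181 for Zfp800 at 25 kb. The Zfp800 loop of 125 kb stayed in the gene, as did the 100 kb loop of Myo5a, a myosin motor gene (n = 180). The genic anchor of the latter also held an end of Arpp19. Next at 25 kb was Gadd45a with 171. On 5 kb anchors Tes and Ms4a6d, with n of 37 each, had loops of 255 and 240 kb, both found in replicate 1 at 250 kb. At 10 kb the third was Zfp184 with 64, whose non-genic anchor lay 10.1 kb from the histone gene H2ac12. Of these 9 loops, 3 were found in replicate 1.

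Regulators of stem and progenitor cells were at gene to non-genic loops in 15 of 54 cases, 27.8% (17.6 to 40.9%), against 10.2% of all protein-coding genes. In replicate 1 they numbered 8 (14.8%), against 3.1% of all genes, with 5 genes in both. Loops of 4 of the 54 were found in replicate 1 (7.41%, against 1.74% of all genes). Lmo2, which bridges transcription factors of blood cells, had a loop of 110 kb on 5 kb anchors (n = 23) and one of 125 kb on 25 kb anchors in replicate 1 (n = 40). Its non-genic anchor lay 74.8 kb from Caprin1, the nearest gene. Zeb2, a zinc finger repressor needed in blood differentiation, was joined from its start to a position 150 kb upstream in each replicate (n = 31 at 10 kb and 39 at 25 kb), with no further gene end between. Ikzf2, which encodes the zinc finger protein Helios, was joined over 360 kb in replicate 2 (n = 14 on 5 kb anchors). The replicate 1 loop spanned 350 kb (n = 33 on 25 kb anchors). In replicate 2 the non-genic anchor lay 204 kb from the nearest gene end, that of Ikzf2 itself.

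In the loop of Meis1, at the start of the gene, the span of 140 kb took in the gene. The midpoint of the non-genic anchor lay 2.93 kb from the gene's far end. Its edge, at 18879999, fell just short of that end, at 18880428, and the anchor held an end of the non-coding gene 8430419K02Rik. The loop was found in replicate 1 at 140 kb, with n of 19 on 5 kb and 14 on 10 kb anchors. Nfix, a nuclear factor of stem cells, had a 60 kb loop in its own body (n = 32), and Etv6 one of 100 kb from its 3′ end to a position 33.8 kb from Bcl2l14 (n = 77). Neither was found in replicate 1. The other 9 genes, named after their values were seen, had shortest loops of 125 to 350 kb, and none of these was found. Runx1, a master regulator of blood formation, was joined over 130 kb from its start into its own body. Myc, which drives growth, had loops of 275 and 400 kb to positions between genes, and Klf4, Lhx2, Trib1, Tcf4, Bmi1, Mef2c and Tcf12 made up the rest. The genic anchor of Bmi1 also held an end of Commd3. In replicate 1 alone Hoxb4, Cebpb and Ikzf1 had gene to non-genic loops.

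**Figure D4:**
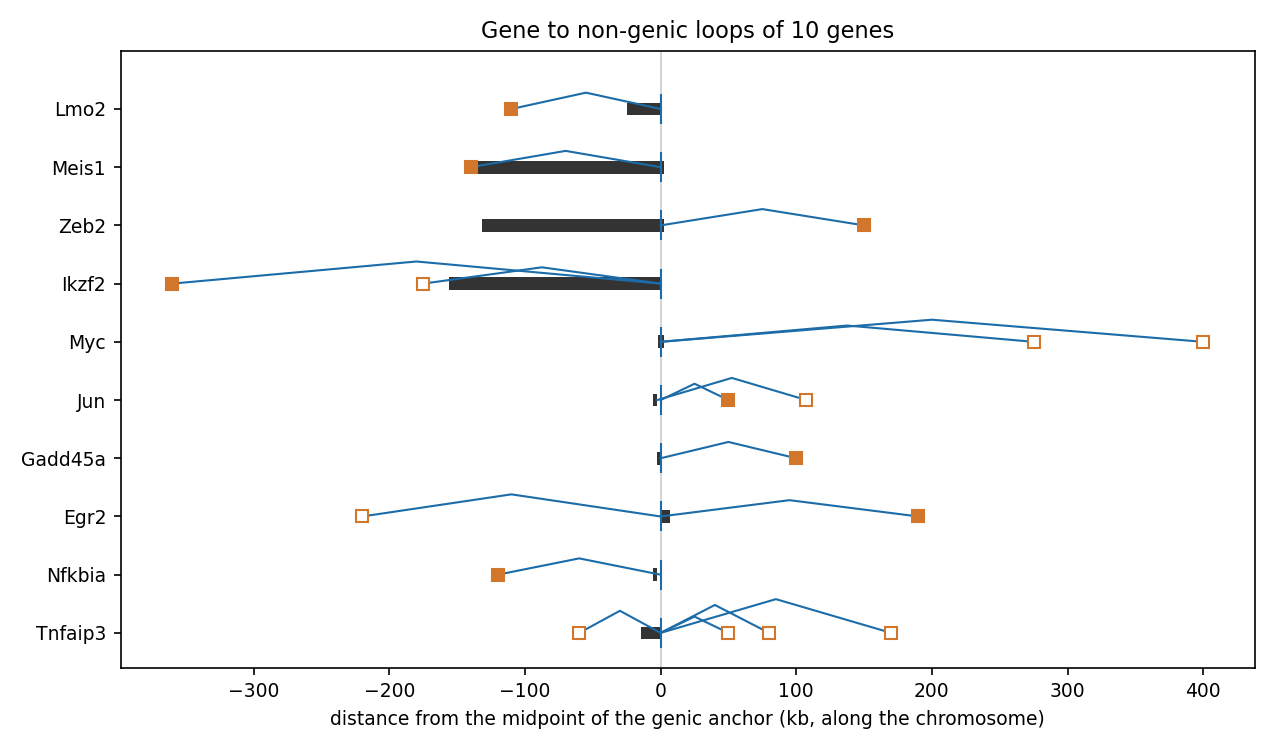
Gene to non-genic loops of 10 genes in replicate 2, placed by distance in kb along the chromosome from the midpoint of the genic anchor (horizontal axis, at 0); black bars are gene bodies, lines join the anchors and squares are non-genic anchors, filled where the loop was found in replicate 1. The 360 kb loop of Ikzf2 and the 140 kb loop of Meis1 are filled, and all 4 squares of Tnfaip3 and both of Myc are open.

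Inflammatory genes of the TNF and NF-kB pathways, a class that the series title names as repressed by Etv6, were at gene to non-genic loops in 16 of 64 cases, 25% (16 to 36.8%), against 10.2% of all. In replicate 1 there were 8 (12.5%, against 3.1%), with 4 in both. Loops of 6 genes were found in replicate 1 (9.38%, against 1.74%). Jun, a subunit of the AP-1 factor, was joined from its start to a position 50 kb upstream on 10 kb anchors in each replicate, with n of 35 and 19. Gadd45a had a 100 kb loop on 25 kb anchors in each, with n of 171 and 45. Egr2, an early response transcription factor gene, was joined over 190 kb downstream in replicate 2 (n = 26 on 10 kb anchors). In replicate 1 the span was 175 kb (n = 31 on 25 kb anchors). The counterparts of these 3 loops were gene to non-genic in replicate 1 too. Jun and Egr2 each had a further loop that was not found there, of 110 kb (n = 15) and 220 kb (n = 19).

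Nfkbia had a 120 kb loop into Prorp (n = 46 on 10 kb anchors), whose counterpart of 100 kb in replicate 1 (n = 46 on 25 kb anchors) was gene to gene. Cxcl2, a chemokine gene of neutrophil recruitment, was joined over 210 kb to a position with ends of 6 further genes between (n = 30 on 10 kb anchors). The counterpart in replicate 1 spanned 200 kb (n = 37 on 25 kb anchors), and its genic anchor did not hold Cxcl2. Ccl9, another chemokine gene, was joined from its end over 65 kb in replicate 2 (n = 21 on 5 kb anchors). In replicate 1 the span was 60 kb (n = 17 on 10 kb anchors). The 10 genes without a loop found in replicate 1 were Tnfaip3, Tnfaip8, Tnfrsf1b, Il6, Cxcl3, Ccl4, Ier5, Zfp36l1, Bcl3 and Nlrp3, named after their values were seen. Il6, an inflammatory cytokine gene, was joined over 175 kb to a position 51 kb from Dnajb6 with no gene end between (n = 110). Nfkbiz, Cxcl1, Fos and Map3k8 had such loops in replicate 1 alone.

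Interferon response genes were below the background, at 2 of 50, or 4% (1.1 to 13.5%), an interval that includes 10.2%. These were Ifngr1, a receptor chain for interferon gamma, and Dhx58, an RNA sensor. Ifngr1 was joined over 100 kb downstream of its start (n = 117). Dhx58, whose anchor also held an end of Zfp385c, was joined over 130 kb to a position inside Ttc25 (n = 25). Each loop was found in replicate 1, which makes 4% of the list, against 1.74% of all genes. There that of Ifngr1 held no gene end at either anchor and that of Dhx58 held one at each. In replicate 1 the count was 1 gene, Gbp5 (2%, against 3.1%).

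Surface receptors and cytokine signalling genes were at such loops in 11 of 48 cases (22.9%, 13.3 to 36.5%, against 10.2% of all genes), and in 5 (10.4%, against 3.1%) in replicate 1. Loops of 2 genes were found there (4.17%, against 1.74%). Jak2, the kinase of the erythropoietin and thrombopoietin receptors, was joined from its start over 190 kb upstream (n = 30), and a counterpart of 200 kb in replicate 1 (n = 19) had no gene end. Il6st, the shared receptor chain gp130, was joined over 200 kb into Ankrd55 in each replicate (n = 25 on 10 kb and 29 on 25 kb anchors). Csf1r, the macrophage growth factor receptor, had a 35 kb loop into Pdgfrb. Socs1, a brake on cytokine signalling, had one of 125 kb into Clec16a, from an anchor that also held ends of Tnp2, Prm3, Prm2 and Prm1. The neighbours Stat3 and Stat5a shared a 150 kb loop into Atp6v0a1. These loops of Csf1r, Socs1, Stat3 and Stat5a were in replicate 2 alone. Kit, Procr and Cd93, surface markers of progenitors, had such loops in replicate 1 alone.

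Cell cycle and growth genes gave 12 of 40 (30%, 18.1 to 45.4%, against 10.2% of all genes) and, in replicate 1, 4 (10%, against 3.1%), all 4 among the 12. Loops of 3 genes were found there (7.5%, against 1.74%). Kif11, a mitotic kinesin, had a 100 kb loop on 25 kb anchors in each replicate, with n of 147 and 48. Cdkn2a, which encodes the inhibitors p16 and p19Arf, was joined over 125 kb into Mtap in each (n = 68 and 27). Bcl2, a survival gene, was joined from its start over 200 kb to a position past its far end in each (n = 31 on 10 kb and 49 on 25 kb anchors). Ccnd2, Cdkn1c and E2f3 each had a 100 kb loop that was not found in replicate 1. The genic anchor of that of Cdkn1c also held an end of Slc22a18.

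Chromatin and loop extrusion genes gave 11 of 39 (28.2%, 16.5 to 43.8%, against 10.2% of all genes) and 2 (5.13%, against 3.1%) in replicate 1. The share with a loop found in replicate 1 was 2.56%, against 1.74%. Stag2, a cohesin subunit gene, was joined over 110 kb (n = 24 on 10 kb anchors) and over 100 kb in replicate 1 (n = 26 on 25 kb anchors). It was the only one found. Tet2, which oxidises methylated cytosine, had a 35 kb loop upstream of its start, and Ep300 one of 60 kb. Sin3a, a corepressor scaffold, had one of 45 kb in its own body, and Arid1a, a chromatin remodeller subunit, one of 50 kb. Hdac3, a histone deacetylase gene, shared an anchor with Diaph1, whose body held the other anchor.

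The remaining lists had intervals that include the background. Myeloid genes gave 6 of 39 (15.4%, 7.25 to 29.7%), with Klf6, a zinc finger factor, joined 60 kb upstream of its start, Ngp and Cpa3, granule protein genes, and Fcgr1, Mmp8 and Maf. The genic anchor of the 100 kb loop of Cpa3 also held an end of Cpb1. Lymphoid genes gave 6 of 34 (17.6%, 8.35 to 33.5%), namely Cd4, Tcf7, Gata3, Cd8a, Bcl6 and Ebf1, over 60 to 425 kb. The genic anchors of Cd4, Tcf7 and Cd8a also held an end of Gpr162, Skp1 and Rmnd5a, in this order. Genes of other tissues gave 6 of 44 (13.6%, 6.4 to 26.7%), among them Vil1, Mbp and, over 475 kb, Nkx2-1. No loop of these 3 lists was found in replicate 1, against loops of 1.74% of all genes. Under the same rule in replicate 1 their shares were 5.13, 2.94 and 2.27%, against 3.1% of all genes. Erythroid and megakaryocytic genes gave 3 of 30 (10%, 3.46 to 25.6%) and 3 (10%, against 3.1% of all genes) in replicate 1. Among those of replicate 2 were Cited2 and Nfe2l2, a stress response factor. Only Nfe2l2 had loops found in replicate 1 (3.33% of the list, against 1.74% of all genes). Nfe2l2 had a loop of 80 kb from its start (n = 20 on 5 kb anchors) and one of 110 kb from its 3′ end (n = 40 on 10 kb anchors). Both matched 1 replicate 1 loop of 100 kb (n = 37 on 25 kb anchors), whose genic anchor held the 3′ end and not the start.

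**Figure D5:**
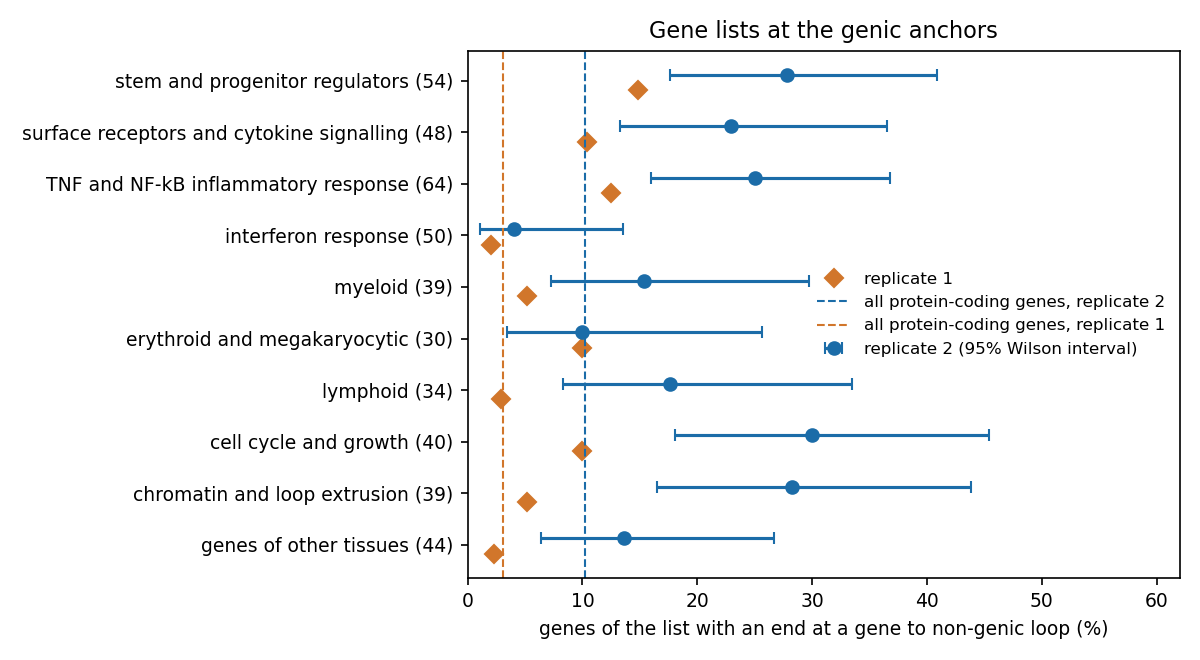
Percent of the genes of each list (rows, with the number of genes) that have an end at a gene to non-genic loop (horizontal axis), as blue circles with 95% Wilson intervals for replicate 2 and orange diamonds for replicate 1; dashed lines are all protein-coding genes, at 10.2 and 3.1%. The intervals of 5 lists lie wholly above the replicate 2 line, from 22.9 to 30%, and that of the interferon response includes it. The lists were chosen with earlier results of these data known.

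The lists were chosen with earlier results of these data known, so their shares describe the loops and are no independent test of an excess over all genes. The lists were not matched for gene length or for neighbouring genes, which bear on how often an end falls in an anchor, and their part in these shares was not tested. Some list genes shared their genic anchor with further genes, and such a loop cannot be assigned to 1 of them. Replicate 1 repeated the order only in part. The stem, receptor, inflammatory and cell cycle lists were at 10 to 14.8% there against 3.1% of all genes, and the erythroid list was also at 10%. The chromatin and loop extrusion list, at 28.2% in replicate 2, was at 5.13% there.

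Few of the loops marked a called domain. Both anchors lay within 25 kb of the edges of 1 of the 339 replicate 2 domains for 52 loops (2.58%, 1.97 to 3.37%). The share was 0.622% (0.266 to 1.45%) for gene to gene loops and 3.57% (2.88 to 4.4%) for loops without gene ends. Within each width the intervals of gene to non-genic and gene to gene loops overlapped. On 10 kb anchors the 3 shares were 3.59% (2.54 to 5.05%), 0.794% (0.218 to 2.85%) and 3.7% (2.74 to 4.98%). Replicate 1 listed 3 domains, too few for the same count.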

How the data were processed

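Hi-C was run on 2 samples of 1 group, and the loop and domain lists deposited for each were used. Reads were processed with HiC-Pro 2.11.1 on mm10, per the submitters' processing notes; callers of loops and domains: not given in the sources used here. Lists were called per sample. Read totals were not in the files used here, so depth is unknown. Anchors were read as deposited; n is undefined. Genes were the 21521 protein-coding genes of RefSeq GRCm38.p6 placed on the 19 autosomes and X, without 345 genes on scaffolds. Strand came from RefSeq start windows (17274 genes). Loops matched when both midpoints lay within 20 kb. Shares carry 95% Wilson intervals, which cover counting error only and treat loops as independent. No test was made, since both samples are in 1 group. Whether they came from separate cultures is not stated. Named were up to 6 genes per list (loops found in replicate 1 first, then shortest), the 5 longest and 5 shortest loops, the 3 highest n per width, and the 5 genes and 5 non-genic anchors with most loops. One item under this rule is not reported here. The 10 lists (445 entries, 442 matched) and the members were chosen with earlier results of these data known. Calculations (Python 3.11.15, pandas 2.3.3) were tested on simulated data.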

Additional observations from a re-analysis of the deposited data

How the results depend on the processing

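The number of gene to non-genic loops stayed within 1.5 times of 2016 with gene ends counted up to 5 or 10 kb beyond the anchor, with all annotated genes, on autosomes alone and with gene starts alone (1354 to 2269 loops). It was 1168 under the high setting, which lists no 25 kb anchors, and 531 without replicate 2. The median span was 100 kb under the high setting and 150 kb without replicate 2, and 130 to 145 kb otherwise. The share found in replicate 1 was 11.6% with a matching distance of 10 kb, 20% with 40 kb, 12.5% by overlap of both anchors, 19.3% with gene ends within 10 kb, and 5.57% under the high setting, also applied to replicate 1. The share with a further gene end between the anchors was 55.3% with gene ends within 10 kb and 89.9% with all annotated genes, and that inside a gene 63.1% with all annotated genes. Without replicate 2 these shares were 66.9 and 52.5%. No paired analysis was possible because both samples belong to 1 group. What limits the comparison of replicates is the unknown depth, and the absence of a loop from a list is no measurement.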
